A study of Mus musculus with 6 samples.

Results

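The elastic fibre genes described here are 10 genes for proteins of the elastic fibre: Eln, Fbn1, Fbn2, Fbln1, Fbln2, Fbln5, Efemp1, Efemp2, Mfap4 and Mfap5. They were chosen by name, with the result of miR-322/-503 overexpression against control already known, and all 10 were among the 55421 genes of the count table. Of these, 9 passed the filter on low counts, as did 18140 genes in all. Fbn2 had no count in any library. RNA-seq was done on cells that had differentiated for 4 days, with 3 libraries of the control and 3 of miR-322/-503 overexpression. C2C12, the parent of both groups, is a line of mouse myoblasts whose cells fuse to myotubes in low serum, and both groups stably carried the CUG200 plasmid, in which expanded CTG repeats follow the GFP gene as a model of myotonic dystrophy type 1 (DM1). On top of it, the control line (CUG200-ctrl) held the empty pLL4.0 vector, and the other line (CUG200-m) held that vector with a miR-322/-503 fragment. Each group was a separate line obtained by drug selection, so an effect of the microRNAs and a difference between lines cannot be told apart. The study's methods speak of both biological and technical replicates for its assays in general, while the labels do not say which the libraries of a group are. The p-values measure the spread between these libraries, which may be technical in part.

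Elastic fibres let arteries, lung, skin and the sheaths around muscle recoil after stretch. Cells first build microfibrils from fibrillins, and tropoelastin, the soluble product of Eln, is then laid on them and crosslinked by lysyl oxidases. Fibulins hold tropoelastin, fibrillin and the crosslinking enzymes together, and microfibril-associated proteins (MFAPs) bind along the microfibril. In adult muscle, fibroblasts and the smooth muscle cells of vessels are the best known makers of this matrix.

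Transcripts of the elastic fibre were less abundant with miR-322/-503 overexpression, but not all to the same degree. In TPM, a level per transcript length, the members summed to 815, 766 and 794 in the control libraries, against 377, 421 and 372 in the miR-322/-503 libraries, a mean of 792 ± 24.4 against 390 ± 26.7 (SD, n = 3). Among the lower members Eln, Mfap4 and Fbln5 had the widest gaps, the abundant Fbn1 and Fbln2 were lower by smaller factors, Efemp2 differed little, and Efemp1 alone was higher. In such bulk libraries, fewer cells of a type and less RNA per cell cannot be told apart.

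Counts were compared with edgeR's quasi-likelihood test, and a gene was called when its adjusted p was under 0.05 and its log2 fold change beyond 1 in either direction. By this rule 5 of the 9 tested members were lower (Eln, Mfap4, Fbln5, Fbln1 and Fbln2), against 5.29% of all tested genes, and 1 member was higher (Efemp1), against 4.59%. At an adjusted p under 0.05 alone, 8 members were lower and 1 was higher, where 15.5% of all tested genes were lower and 13.2% higher. In CPM, the counts scaled to the TMM library size, the groups did not overlap for the same counts of members, 8 lower and 1 higher, against 23.5% and 21.6% of all tested genes. The median log2 fold change was -1.01 over the tested members and -0.0066 over all tested genes, whose quartiles were -0.30 and 0.28. Since the members were chosen with this comparison known, their counts and differences are descriptions, nothing is read from the shares, and no p-value is given for a member. Eln passed the filter on low counts through its control libraries alone.

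**Figure D1:**
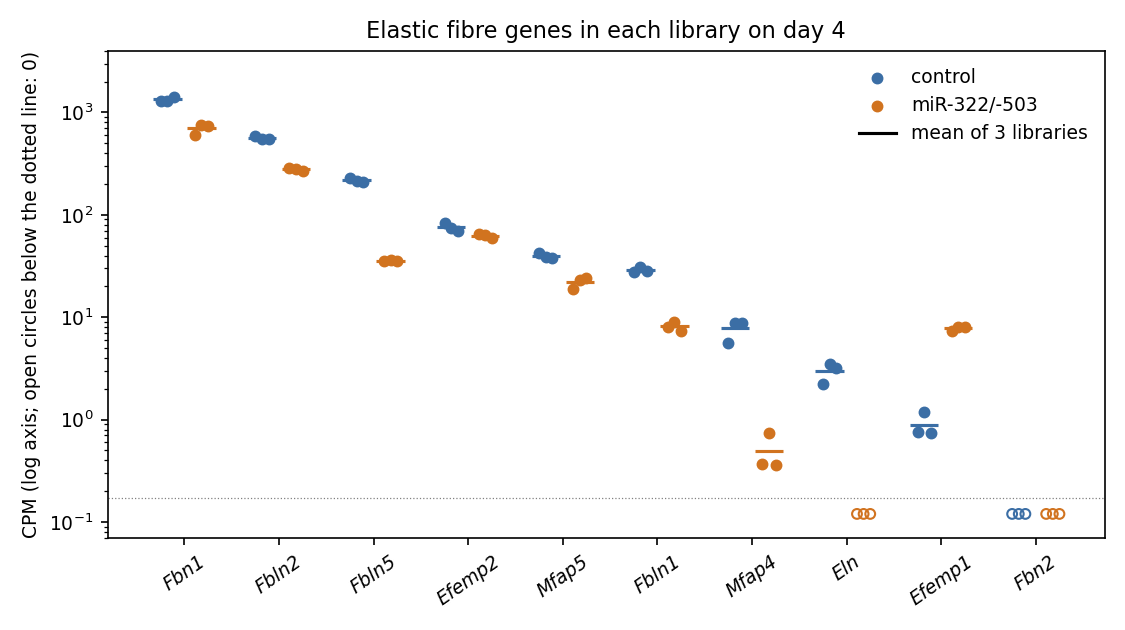
CPM of each elastic fibre gene (log axis) in the 3 control libraries (blue) and the 3 miR-322/-503 libraries (orange), with a line at each group's mean and open circles for libraries at 0. The groups are apart for 9 genes, 8 lower and 1 higher (Efemp1), and Fbn2 is at 0 in all 6 libraries.

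Eln encodes tropoelastin, the elastic core of the fibre, and lies at chr5:134702593-134747323 (GRCm38, minus strand). It was weakly expressed in the control, with 2.22, 3.49 and 3.20 CPM (172, 288 and 270 estimated counts), and had no count in any miR-322/-503 library. All 3 control libraries were above all 3 miR-322/-503 libraries. Taking 3 read pairs, which are 12 estimated counts, as the limit that a count of 0 allows in each library, Eln was at least 20.0-fold lower with miR-322/-503 overexpression. This bound covers counting error only. Even in the control its level per length was 1.49 ± 0.329 TPM, far under the 241 TPM of the microfibril gene Fbn1.

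The fibrillins form the microfibril. Fbn1 (chr2:125300594-125507993, minus strand), which encodes the main fibrillin of adult tissue, had 1307, 1299 and 1404 CPM in the control libraries and 604, 750 and 737 CPM in the miR-322/-503 libraries. The lowest control library was far above the highest miR-322/-503 library. The log2 fold change was -0.94 ± 0.0897 (SE), a 1.92-fold lower level, which left Fbn1 just outside the call. Fbn2 (chr18:58008623-58210487, minus strand), the fibrillin known for developing tissue, had no count in any of the 6 libraries, which at 3 read pairs allows a level of up to 0.126 to 0.160 CPM by library.

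Fbln2 and Fbln1 encode fibulins that bind fibrillin and basement membrane proteins. Fbln2 (chr6:91212455-91272540, plus strand) had 584, 544 and 547 CPM in the control and 288, 278 and 267 CPM with miR-322/-503 overexpression. The groups were well apart, and replicates differed little. Its log2 fold change was -1.01 ± 0.0594 (SE), just inside the call. Fbln1 (chr15:85205949-85286535, plus strand) was scarcer, with 27.9, 30.9 and 28.3 CPM against 8.08, 8.98 and 7.33 CPM. Here too every control library was above every miR-322/-503 library, with a log2 fold change of -1.84 ± 0.103 (SE). Over the 17 alternative settings the log2 fold change of Fbln2 lay between -1.03 and -0.96, and its call was lost in 8 of them, among them the fit without control replicate 1 (-0.97) and the fit without miR-322/-503 replicate 3 (-0.98).

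Fbln5 encodes a fibulin that carries tropoelastin to microfibrils and binds the lysyl oxidase Loxl1. Its values were 228, 215 and 210 CPM in the control libraries and 35.6, 35.9 and 35.5 CPM in the miR-322/-503 libraries, at chr12:101746565-101819055 (minus strand). The miR-322/-503 libraries were nearly equal, and the lowest control library was several times above them. The log2 fold change was -2.61 ± 0.0577 (SE), a 6.09-fold lower level, and it stayed between -2.67 and -2.56 in every alternative setting. Fbln5 was thus the member with the widest gap among those above 10 CPM in the control.

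Fbln5 was also the one member with a 3'UTR match to the whole seed of miR-322, the bases through which a microRNA pairs with its target. The mature sequences, from RefSeq (GRCm38.p6, chrX:53054306-53054327 and chrX:53054027-53054049, both minus strand), are shown with the seed, bases 2 to 8, in capitals.
miR-322-5p: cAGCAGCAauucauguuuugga
miR-503-5p: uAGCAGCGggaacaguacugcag
The letters that pair with these seeds in a target are TGCTGCT for miR-322 and CGCTGCT for miR-503, and both contain GCTGCT. In the longest 3'UTR of each of 20657 genes (GENCODE M21, at least 50 bases, sense strand), TGCTGCT occurred in 20.7%, CGCTGCT in 4.00%, GCTGCT followed by A in 8.98% and GCTGCT, which the others contain, in 39.2%. Of the 10 members, Fbln5 held TGCTGCT, none held CGCTGCT or GCTGCTA, and Fbln1 and Fbln5 held GCTGCT. The matches are shown with GCTGCT in capitals, and the site at base 400 of the Fbln5 3'UTR, counted from 1 after the stop codon, is the 7-base match.
Fbln5, base 400: tctcttgctgcattGCTGCTttgcaaaa
Fbln5, base 2636: ccagaacccaaaagGCTGCTtgttttac
Fbln5, base 2989: aatacttccatttaGCTGCTtctgactc
Fbln5, base 3821: tgtaggtcatatcaGCTGCTttgagctc
Fbln1, base 428: gtttcaagttgatgGCTGCTgtagagtg
The Fbln5 3'UTR had 4177 bases and was longer than 93.8% of these 3'UTRs, whose median was 989 bases, and a long 3'UTR tends to hold more matches of any kind. Eln, Mfap4 and Fbln2, which were also called lower, held none of these letters. A match is a description of the sequence, and binding was not measured. The Mir322 and Mir503 genes themselves had at most 17 and 6 estimated counts in any library, so the level of the microRNAs was not followed here.

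Efemp2 and Efemp1 encode the other short fibulins. Efemp2 (fibulin-4, chr19:5473954-5482517, plus strand) brings lysyl oxidase to tropoelastin. It had 84.0, 74.9 and 69.5 CPM in the control and 65.0, 63.5 and 59.5 CPM with miR-322/-503 overexpression. The groups were close, and in TPM they overlapped, with a control range of 74.5 to 98.5 and a miR-322/-503 range of 66.2 to 75.1. Its log2 fold change was -0.28 ± 0.0800 (SE), between -0.34 and -0.21 over the alternative settings. In 9 of these 17 settings it was not past an adjusted p of 0.05, among them every fit without 1 library except that without control replicate 3. The last bases of Efemp2 overlap Mus81 on the opposite strand, and whether reads were counted by strand is not given in the sources used here.

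Efemp1 (fibulin-3, chr11:28853204-28926743, plus strand) encodes a fibulin of the eye and of fascia. It was the exception in direction, with 0.762, 1.18 and 0.746 CPM in the control libraries (59, 97 and 63 estimated counts) and 7.32, 8.03 and 8.01 CPM in the miR-322/-503 libraries (698, 602 and 602 estimated counts). Every miR-322/-503 library was above every control library. The log2 fold change was 3.12 ± 0.208 (SE), an 8.70-fold higher level, which moved Efemp1 from below Eln to above Fbln1 in the order of TPM. It was called higher in all 17 alternative settings.

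As Fbln5 and Efemp1 were called in opposite directions, their promoters are shown, from 250 bases before to 50 bases after the RefSeq start (GRCm38.p6), 5′ to 3′ on the strand of the gene. Capitals mark GC boxes (GGGCGG) and a loose form of the AP-1 motif (TGANTCA, any base at N), searched on both strands.
Fbln5, chr12:101819070-101819369, minus strand: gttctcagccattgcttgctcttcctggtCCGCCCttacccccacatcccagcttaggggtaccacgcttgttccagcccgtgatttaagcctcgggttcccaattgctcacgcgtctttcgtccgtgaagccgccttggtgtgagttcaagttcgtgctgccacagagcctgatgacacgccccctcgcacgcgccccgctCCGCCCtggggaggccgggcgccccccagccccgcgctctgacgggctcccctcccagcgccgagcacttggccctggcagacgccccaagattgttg
Efemp1, chr11:28852955-28853254, plus strand: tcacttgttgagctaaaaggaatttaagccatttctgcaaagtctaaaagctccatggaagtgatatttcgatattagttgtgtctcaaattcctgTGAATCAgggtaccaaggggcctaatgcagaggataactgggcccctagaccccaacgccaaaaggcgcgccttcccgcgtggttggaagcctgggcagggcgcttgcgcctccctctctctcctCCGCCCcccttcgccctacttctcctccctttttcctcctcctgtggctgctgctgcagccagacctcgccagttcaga
The Fbln5 promoter had 65.7% G or C and the Efemp1 promoter 54.3%. RefSeq promoters were matched for 6 members (Fbn1, Fbln1, Fbln2, Fbln5, Efemp1 and Efemp2). The RefSeq start lay 1555 bases from the gene's 5′ end for Fbn1 and 309 bases for Fbln2, and 0 to 64 bases for the others. A GC box occurred in 5 of the 6, Fbln1 aside, against 35.7% of 32851 promoters of this length. The loose form TGANTCA occurred in Efemp1 alone, with A at N, against 7.81%. E-boxes (CANNTG, the motif family of myogenic factors) were in 5 of the 6 against 72.3%, and the short SMAD motif CAGAC was in 4 of the 6 against 49.6%. None of the 6 held TATAAA (13.6% of all promoters), the TEAD motif GGAATG (14.7%) or a CArG box (1.63%). Such matches describe the letters of these windows only.

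Of the MFAPs, Mfap4 (chr11:61485431-61488900, plus strand), which binds elastin and collagen, had 5.65, 8.80 and 8.84 CPM in the control and 0.367, 0.747 and 0.359 CPM with miR-322/-503 overexpression. These rest on 437, 727 and 746 estimated counts against 35, 56 and 27. The groups were far apart, and control replicate 1 was the lowest of the control libraries. The log2 fold change was -3.99 ± 0.344 (SE), and it lay between -4.41 and -2.66 over the alternative settings. Mfap4 overlaps Mapk7 on the opposite strand, which had 2112 to 2330 estimated counts in control and 1788 to 1888 in miR-322/-503 libraries. Mfap5 (chr6:122505845-122529290, plus strand), also named MAGP-2, binds fibrillin. It had 42.0, 38.4 and 38.3 CPM against 18.8, 22.9 and 24.2 CPM. The groups did not overlap, and the log2 fold change of -0.85 ± 0.108 (SE) was outside the call.

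**Figure D2:**
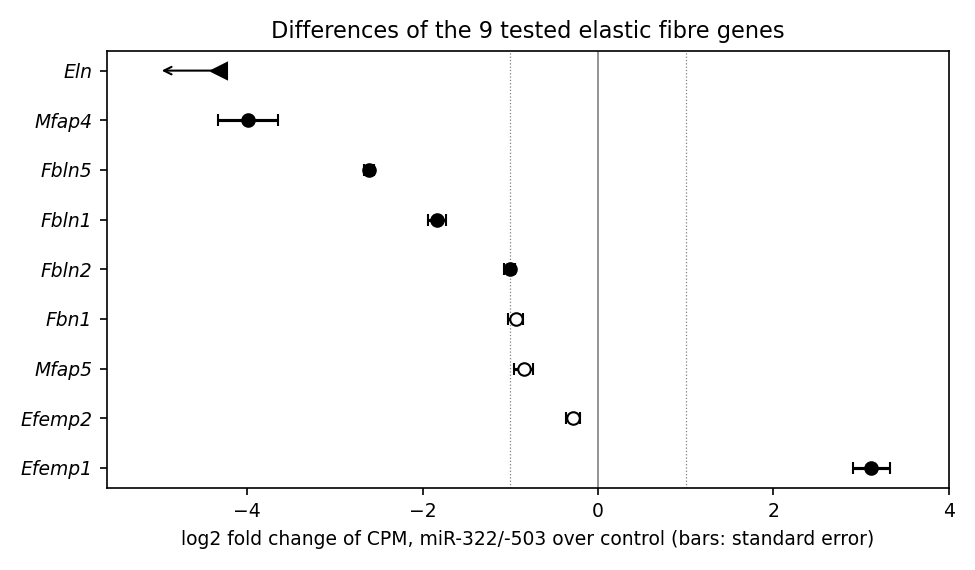
Log2 fold change of CPM, miR-322/-503 over control, with standard errors as bars, for the 9 tested elastic fibre genes. Filled points are called genes, dotted lines mark -1 and 1, and the arrow of Eln starts at its bound of at least 20.0-fold lower, while Efemp1 at 3.12 is the only gene right of 0.

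The order of the members by level changed with these unequal differences. In the control, mean TPM was 281 for Fbln2, 241 for Fbn1, 105 for Fbln5, 84.3 for Efemp2, 50.3 for Mfap5, 18.6 for Fbln1, 8.96 for Mfap4, 1.49 for Eln and 0.839 for Efemp1. Genes next to each other in this order had no overlap between their libraries. In the miR-322/-503 libraries it was 137 for Fbln2, 120 for Fbn1, 72.1 for Efemp2, 30.0 for Mfap5, 16.5 for Fbln5, 7.73 for Efemp1, 5.40 for Fbln1 and 0.553 for Mfap4, and only Fbln2 and Fbn1 overlapped. Fbln5 thus stood above Efemp2 and Mfap5 in the control and below both with miR-322/-503 overexpression. When estimated counts were divided by exon length instead, Fbn1 stood above Fbln2 in both groups and Efemp1 above Eln in the control.

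**Figure D3:**
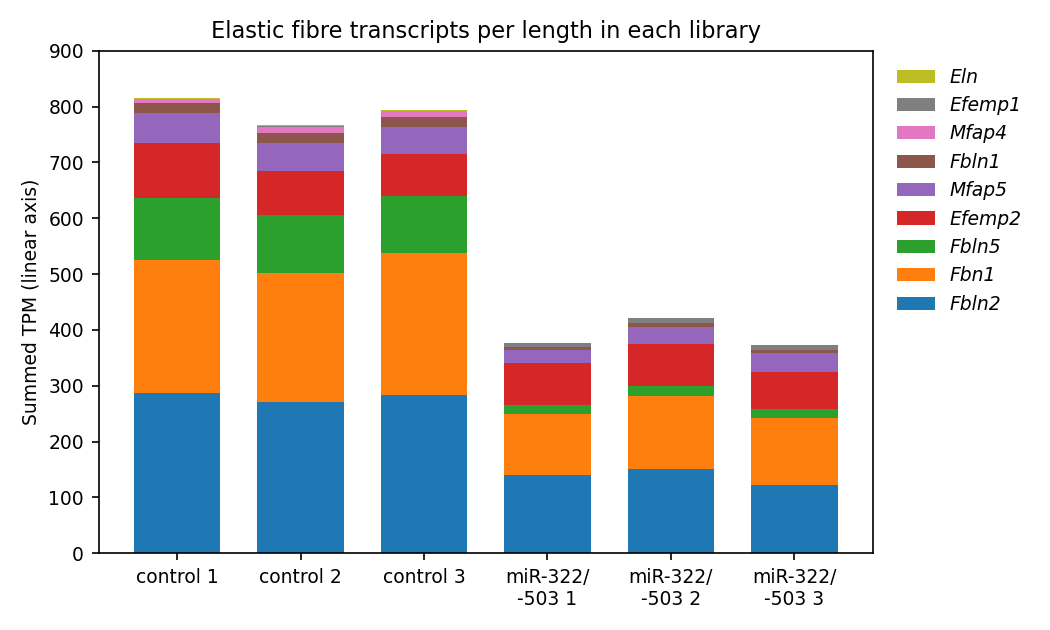
TPM of the elastic fibre genes stacked by library (linear axis from 0), 3 control libraries on the left and 3 miR-322/-503 libraries on the right. The stacks reach 766 to 815 in the control and 372 to 421 with miR-322/-503 overexpression, and Fbln5 (green) makes up a mean of 13.3% of the control stacks and 4.23% of the others.

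Within a library, Fbn1 and Fbln2 took like parts of the summed TPM in both groups. Fbn1 made up 30.5 ± 1.39% of it in the control and 30.8 ± 1.88% with miR-322/-503 overexpression (SD, n = 3), and Fbln2 made up 35.4 ± 0.278% and 35.2 ± 2.37%. The ratio of Fbln2 to Fbn1 was 1.16 ± 0.0439 in the control and 1.15 ± 0.146 in the miR-322/-503 libraries. Fbln5 did not follow them, with 13.3 ± 0.375% of the sum in the control and 4.23 ± 0.125% with miR-322/-503 overexpression, and Efemp2 took 10.6 ± 1.37% and 18.5 ± 1.21%. For each transcript of Fbln5 there were 0.885, 0.778 and 0.726 of Efemp2 in the control libraries and 4.86, 4.11 and 4.18 in the miR-322/-503 libraries. Ratios of this kind do not depend on the scaling of a library.

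The genes whose profile over the 6 libraries lay closest to that of Fbln2, the called member with the highest control TPM, were Podnl1, Col5a2 and Cpt1c. The root mean square distance of centred log2 CPM was 0.0211, 0.0287 and 0.0328. Podnl1, a leucine-rich repeat protein, had 148 ± 4.07 CPM in the control and 73.2 ± 3.99 with miR-322/-503 overexpression. Col5a2, a chain of the fibril collagen type V, had 2628 ± 108 and 1282 ± 31.4 CPM, and Cpt1c, a carnitine palmitoyltransferase of the brain, had 35.5 ± 0.750 and 17.7 ± 0.641 CPM. With 6 libraries in 2 groups, likeness in this measure is mostly a like difference between the groups.

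The members lie apart on the genome, with no more than 2 on a chromosome, and the genes around them had medians near 0. Among tested genes within 1 Mb, the median log2 fold change was 0.18 around Eln (37 genes), -0.19 around Fbn1 (14), 0.10 around Fbn2 (9), -0.02 around Fbln1 (23), -0.05 around Fbln2 (29), -0.04 around Fbln5 (23), 0.01 around Efemp1 (15), 0.16 around Efemp2 (108), -0.0030 around Mfap4 (35) and 0.15 around Mfap5 (13). Single neighbours varied more, with log2 fold changes from -7.51 to 1.33 around Fbln1 and from -3.94 to 1.56 around Fbn1. Around Efemp1 they lay between -0.41 and 0.46. Whether the surroundings of a member had a part in its difference was not tested. No member lies on chromosome 9, where the 1014 tested genes had a median of -0.27 and where Loxl1, Thsd4 and Tagln also lie.

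Proteins that work beside the members were described from 5 lists of 66 genes, of which 63 were tested. At an adjusted p under 0.05, 32 were lower and 13 higher, where 15.5% of all tested genes were lower and 13.2% higher. By the rule with the fold limit 16 were lower and 5 higher, against 5.29% and 4.59% of all tested genes. The lists were chosen with earlier results of these data known, so the counts here and by list are descriptions. The largest count was among partners of microfibrils and elastin, with 12 of 14 lower and 2 of 14 higher and a median log2 fold change of -0.50. Values after ± are SDs for CPM and SEs for log2 fold changes. Fbln7, a further fibulin, fell from 56.8 ± 4.01 to 7.22 ± 0.666 CPM (log2 fold change -2.98 ± 0.102, adjusted p = 2.63e-06 in the edgeR test). Hmcn1, the very long hemicentin also counted as a fibulin, rose from 0.228 ± 0.0601 to 6.19 ± 0.422 CPM (log2 fold change 4.75 ± 0.223, adjusted p = 8.48e-06). With Efemp1, that gave 2 fibulins that were higher beside 5 that were lower at an adjusted p under 0.05. Over all settings the log2 fold change of Hmcn1 lay between 1.08 and 4.98.

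Mfap2, or MAGP-1, which like Mfap5 binds fibrillin, fell from 3.29 ± 0.456 to 0.524 ± 0.334 CPM (log2 fold change -2.66 ± 0.421, adjusted p = 0.0029), with 28, 68 and 28 estimated counts in the miR-322/-503 libraries and a log2 fold change of -3.31 without replicate 2 of that group. Emilin1, found where elastin meets the microfibril, fell with a log2 fold change of -1.60 ± 0.0903. All 4 latent TGF-beta binding proteins, which tether TGF-beta to fibrillin, fell as well, Ltbp2 by 1.32 on the log2 scale and Ltbp1, Ltbp3 and Ltbp4 by 0.54, 0.46 and 0.61.

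Crosslinking and assembly enzymes had 9 of 14 genes lower, 3 higher and a median of -0.86. The 5 lysyl oxidases, which crosslink tropoelastin and collagen, all fell. Lox, the most abundant of them, went from 2060 ± 176 to 803 ± 31.3 CPM (log2 fold change -1.36 ± 0.0728, adjusted p = 1.64e-05), Loxl4 had a log2 fold change of -1.42 and Loxl1, the partner of Fbln5, one of -0.96. Adamtsl3 and Adamtsl2, secreted proteins related to the ADAMTS proteases, fell by 2.74 and 1.95 on the log2 scale. Against them, Thsd4, which binds fibrillin-1 and aids microfibril assembly, rose from 0.608 ± 0.0703 to 2.75 ± 0.258 CPM (log2 fold change 2.17 ± 0.201), and the protease Adamts17 rose from 1.44 ± 0.349 to 6.81 ± 0.619 CPM (log2 fold change 2.24 ± 0.205). Over all settings the log2 fold change lay between 0.545 and 2.24 for Thsd4 and between 1.21 and 2.41 for Adamts17.

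Of 13 elastolytic proteases and their inhibitors, 10 were tested, 3 were lower, 2 were higher and the median was -0.14. Mmp2, a gelatinase that also cuts elastin, fell from 1335 ± 42.7 to 197 ± 11.8 CPM (log2 fold change -2.76 ± 0.0658, adjusted p = 6.56e-07). It lies at chr8:92827291-92853420, and the 10 tested genes within 1 Mb of it had a median of -1.61, so its surroundings differed too. Timp3, an inhibitor of metalloproteinases that stays bound to the matrix, fell by 2.08 on the log2 scale, and Cst3, the inhibitor of cathepsins, by 0.64, while Timp2 and the cathepsin Ctsb rose with log2 fold changes of 0.70 and 0.36. The elastases Mmp9, Mmp12 and Ctss were at or near 0 in all libraries and were not tested.

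Receptors and TGF-beta genes showed no common direction. Of 12 receptor genes, 4 were lower and 4 higher, with a median of -0.06. The integrin chains Itgb8 and Itgb6, known for activating latent TGF-beta, rose with log2 fold changes of 2.06 and 1.20, as did Lgals3 (0.62) and Ctsa (0.49), and Itgb5 fell by 0.36. Of 13 genes of the TGF-beta pathway, 4 were lower and 2 higher, with a median of -0.15. Tgfb3 fell from 559 to 236 CPM (log2 fold change -1.24 ± 0.0583, adjusted p = 8.48e-06). Tgfb1 and Tgfb2 were not past the threshold, with log2 fold changes of -0.11 and 0.16 (adjusted p = 0.434 and 0.348). The TGF-beta targets Ccn2 and Smad7 fell by 1.30 and 0.66 on the log2 scale, and the receptor gene Tgfbr1 rose by 0.29. In the fits without 1 library, Smad7 stayed past the threshold only without control replicate 1, and Tgfbr1 only without control replicate 3 or miR-322/-503 replicate 1.

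**Figure D4:**
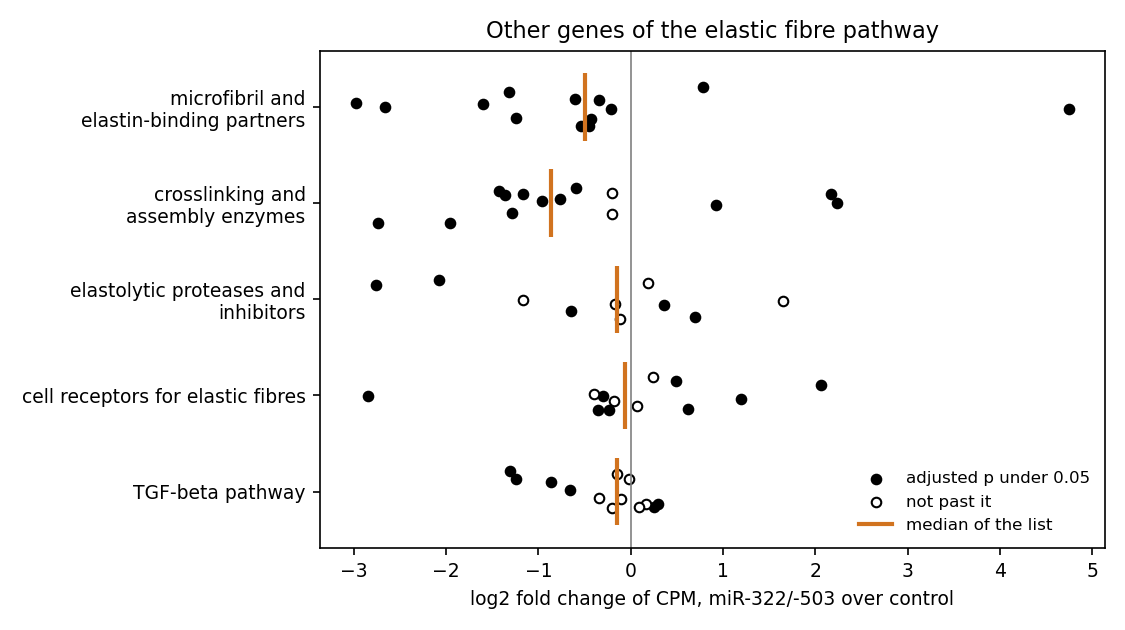
Log2 fold change of CPM, miR-322/-503 over control, for the 63 tested genes of the 5 pathway lists, 1 point a gene, filled at an adjusted p under 0.05, with an orange line at each list's median. The medians of the first 2 lists are -0.50 and -0.86, and those of the other lists lie between -0.15 and -0.06.

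Markers of the labelled cell and of other cells moved with the same comparison. Total estimated counts lay between 73532084 and 92157388 a library. Of 11 myotube markers, 6 were higher and 2 lower, and their summed level was 5094 to 5587 CPM in the control and 6607 to 6820 CPM with miR-322/-503 overexpression. Des rose from 1149 to 1800 CPM (log2 fold change 0.65), and Acta1 was not past the threshold (log2 fold change 0.09). The lower markers, outside the naming rule and named after their values were seen, were Myh1, an adult myosin heavy chain (log2 fold change -1.43), and Myog, the myogenic factor myogenin (-0.74). Of 11 fibroblast markers, 9 were tested, 5 were lower and 2 higher, at 12854 to 13465 CPM against 9185 to 9551 CPM. Col3a1, which made up most of this sum, fell (log2 fold change -0.74), and Col1a1 rose (0.53). Tcf21 was at 0 in every library and Thy1 was near 0. Of 7 smooth muscle markers, 4 were lower and none higher, at 6937 to 7355 CPM against 2993 to 3279 CPM. Acta2, which made up most of this sum, and Tagln fell by 1.11 and 2.44 on the log2 scale. The defining Myh11 was near 0 in both groups. All 5 cycling cell markers were lower, at 750 to 789 CPM against 475 to 501 CPM, Mki67 by 0.75 and Top2a by 0.58. Of the 4 tested markers of cartilage and bone, 1 was lower and 1 (Sox9, 0.30) higher, and the list summed to 118 to 125 CPM against 123 to 136 CPM, with Acan and Ibsp at 0. Of the 3 tested fat markers, 1 was lower and 1 (Lpl, 2.10) higher, and the list summed to 17.4 to 20.1 CPM against 25.3 to 29.7 CPM, with Adipoq and Fabp4 at 0. Of the 2 tested endothelial markers, Tek, which made up most of the sum, rose (1.90) and Vwf was not past the threshold (-0.35), and the list of 5, with Pecam1, Cdh5 and Kdr at or near 0, summed to 1.59 to 1.98 CPM against 3.89 to 5.57 CPM. Macrophage markers, of which 1 of 3 tested was lower and Adgre1 was at 0, summed to 3.54 to 5.08 CPM against 3.86 to 4.28 CPM. The part of these markers in the differences of the elastic fibre genes was not tested.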

How the data were processed

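RNA-seq libraries of DM1 myoblasts with and without miR-322/-503 overexpression, from day 4, were analysed. The authors used Trim Galore for trimming, HISAT2 for alignment to GRCm38 and StringTie for quantification. Versions, gene annotation and strand setting are not given in the sources used here. The deposited series table holds whole-number estimated counts of each gene that are not normalized, and the deposited table of each library holds a coverage signal, FPKM and TPM values. Each count stood for about 75 covered bases and low genes most often had 300 covered bases, so that about 4 counts made 1 read pair, and a library held 18383021 to 23039347 read pairs. The counts thus look more precise than the reads allow, while the test takes the spread from the replicates.

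Counts were tested with edgeR 4.0.16 (filterByExpr, TMM, glmQLFit, glmQLFTest, Benjamini-Hochberg over 18140 genes) in R 4.3.3. Standard errors (SE) were taken as the absolute log2 fold change over the root of F. CPM were computed on TMM library sizes and are given as mean ± SD, and TPM was used between genes. The computation was tested on simulated data. The members, pathway lists, marker lists and the naming rule were chosen with earlier results of these data known. Named were all members, in each pathway list up to 5 genes with the largest log2 fold change at an adjusted p under 0.05 and at least 1 CPM in the higher group, Mfap2, Lox, Loxl1, the Ltbp genes and the Tgfb ligands, up to 2 marker genes a list, and the 3 genes most like Fbln2 (pseudocount 0.5). Of the genes this rule named, 1 is not reported here. Sequences came from RefSeq (GRCm38.p6) and GENCODE M21, in which 55240 gene identifiers were found. Alternatives were DESeq2 1.42.0, other size factors and filters, glmTreat, limma 3.58.1 on log2(TPM + 1) and log2(TPM + 0.1), a replicate block and fits without each library. Counts per read pair were added after the data were seen. The labels name no batch.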

Additional observations from a re-analysis of the deposited data

How the results depend on the processing

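Over the alternatives, 140 of 152 values of the members kept their direction and side of the threshold and 12 became weaker. Of 544 values of named pathway genes, 519 kept both and 25 became weaker. No value was reversed. Members called lower numbered 4 to 6. Fbln2 lost its call with DESeq2, RLE and upper quartile factors, library totals alone, glmTreat, counts per read pair and 2 fits without 1 library, and limma on log2(TPM + 1) and log2(TPM + 0.1) also called Fbn1 (-1.01 at the lowest). Eln could not be tested with at least 10 counts in every library. The stricter glmTreat, in which a change has to exceed a log2 value of 1, gave 530 lower and 396 higher genes in place of 959 and 832. It left 4 of the 8 lower members, 13 of 32 lower and 4 of 13 higher pathway genes, 3 of 5 lower fibroblast markers and 0 of 6 higher myotube markers. Limma on log2(TPM + 1) gave 564 lower and 391 higher genes; its pseudocount shrinks low genes. By counts per exon length, the control share of Fbn1 was 40.5% and that of Fbln2 32.2%, and the cause was not tested. Under the size factors tried, the median of all tested genes lay between -0.0066 and 0.0378.

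Replicate numbers were not taken as pairs, since the deviations of same-numbered libraries correlated at 0.131, 0.0687 and 0.0451, although each library correlated best with its own number. With the replicate block, 5 members were called lower and 1 higher, as without it, and 893 genes in all were called lower. Levels under about 12 estimated counts a library could not be told from 0, which limits Eln and Fbn2, and 3 libraries a group limit the precision of each SD.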
